A study of Mus musculus with 18 samples.

Results

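The 32 genes described here carry out and control cholesterol synthesis, fatty acid synthesis and cholesterol export in mouse macrophages. They were listed by gene symbol from their known roles, with earlier results of these data known, and were found through their Ensembl identifiers among the 50600 genes of the count table. All 32 passed the filter on low counts and were among the 15663 genes tested. By role they were 16 enzymes of sterol synthesis, 6 sterol regulators and transport proteins, 5 LXR receptors and targets, and 5 genes of lipogenesis, the making of fatty acids.

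Cells make cholesterol from acetyl-CoA through mevalonate, squalene and lanosterol. When sterols run low, SCAP carries the transcription factor SREBP2 (encoded by Srebf2) out of the endoplasmic reticulum, and SREBP2 then switches on nearly every gene of the route. INSIG proteins hold SCAP back when sterols are plentiful. SREBP1, encoded by Srebf1, favours the genes of fatty acid synthesis. Oxysterols, which are oxidised forms of cholesterol, activate the nuclear receptors LXRα (Nr1h3) and LXRβ (Nr1h2), whose targets include the exporters Abca1 and Abcg1, Srebf1, and Mylip, a ubiquitin ligase that limits cholesterol uptake. In macrophages these routes set how much cholesterol is kept or exported, and they are known to respond to Toll-like receptor signals such as LPS.

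Bone marrow-derived macrophages (BMDMs) were grown with GM-CSF for 8 days from WT mice and from mice lacking IRF5 (IRF5 KO), a transcription factor of inflammatory genes. Cells were left unstimulated or given 100 ng/ml LPS for 2 h, and LPS followed 1 h of pretreatment with DMSO, the vehicle, or 3.5 μM defactinib, an inhibitor of the kinases FAK and PYK2. Each genotype gave 3 groups of 3 libraries, named here as unstimulated, LPS DMSO and LPS defactinib. No group had defactinib without LPS, so the inhibitor could be compared only in stimulated cells. The labels call the unstimulated libraries DMSO-treated and the column names of the table mark them as untreated. The study's methods name male C57BL/6J mice for its animals, without tying strain, sex or age to these cultures or giving the origin of the IRF5 KO mice. The 3 libraries of a group are labelled biological replicates, without saying whether each came from its own animal.

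Libraries held 39282181 to 61949143 counted read pairs. Irf5 itself was counted at 587 to 650 CPM (counts scaled to library size) in WT unstimulated and at 335 to 396 CPM in IRF5 KO unstimulated libraries, but at 213 to 379 CPM in WT LPS defactinib and 353 to 392 CPM in IRF5 KO LPS defactinib libraries. With LPS DMSO it was at 434 to 475 CPM in WT and 345 to 435 CPM in IRF5 KO libraries. Whole-gene counts thus did not show its loss, which exons are removed was not given in the sources used here, and IRF5 KO names the libraries so labelled. By the mean correlation with the other libraries of each group, none of the 3 IRF5 KO LPS DMSO libraries was closest to its own group. For replicates 1 and 2 the own-group mean (r = 0.962 for both) takes in replicate 3. Replicates 1 and 2 correlated best across genes with IRF5 KO LPS defactinib (r = 0.986 for both), and replicate 3 with IRF5 KO unstimulated (r = 0.978, against 0.932 with its own group). Replicate 3 thus stands apart from replicates 1 and 2, whose own-group value it lowers, and whether labels were exchanged cannot be told from the counts. Counts of called genes among the 32 that use this group are given with all 3 libraries, without replicate 3, and with replicate 3 alone. Values without replicate 3 rest on libraries whose mean correlation was highest with the defactinib group. The fit with replicate 3 alone was added after the data were seen, and assumes that the lone library varies like the other groups. The noncoding RNA Gm26917 followed the same division, at 47.0 to 143 CPM in the unstimulated and WT LPS DMSO libraries and in replicate 3 of IRF5 KO LPS DMSO, and at 11392 to 41939 CPM in the others. The 9 macrophage markers summed to 11440 to 21306 CPM over all libraries, with Adgre1, Csf1r and Itgam counted in each. Markers of adipocytes, a cell type rich in lipogenic enzymes, summed to at most 0.409 CPM, with Lep at 0 in every library. In bulk RNA, fewer cells of a type and less RNA per cell cannot be told apart.

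Levels per kilobase of exon, the scale on which genes can be compared with each other, spanned a wide range in WT unstimulated cells. The highest was Scd2, a stearoyl-CoA desaturase that makes oleate, at 155 ± 5.69 FPKM (SD, n = 3; FPKM are counts scaled to exon length and library size). It was followed by Hmgcs1, which makes HMG-CoA for mevalonate, at 80.3 ± 0.798 FPKM, Abcg1 at 66.9 ± 4.21 FPKM, Srebf2 at 65.7 ± 2.11 FPKM and Acly, which supplies cytosolic acetyl-CoA, at 65.0 ± 1.08 FPKM. The last 3 of these lay within their spread of each other. The lowest were Nr1h3 at 2.20 ± 0.175 FPKM and Fdps, the farnesyl diphosphate synthase, at 1.44 ± 0.0936 FPKM. Fdps is an uncertain value, because 26.7% of its exon bases are shared on the same strand with Gm43738 and reads placed in both are not counted. The receptor pair was uneven, with Nr1h2 at 20.1 ± 1.57 FPKM in the same cells.

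**Figure D1:**
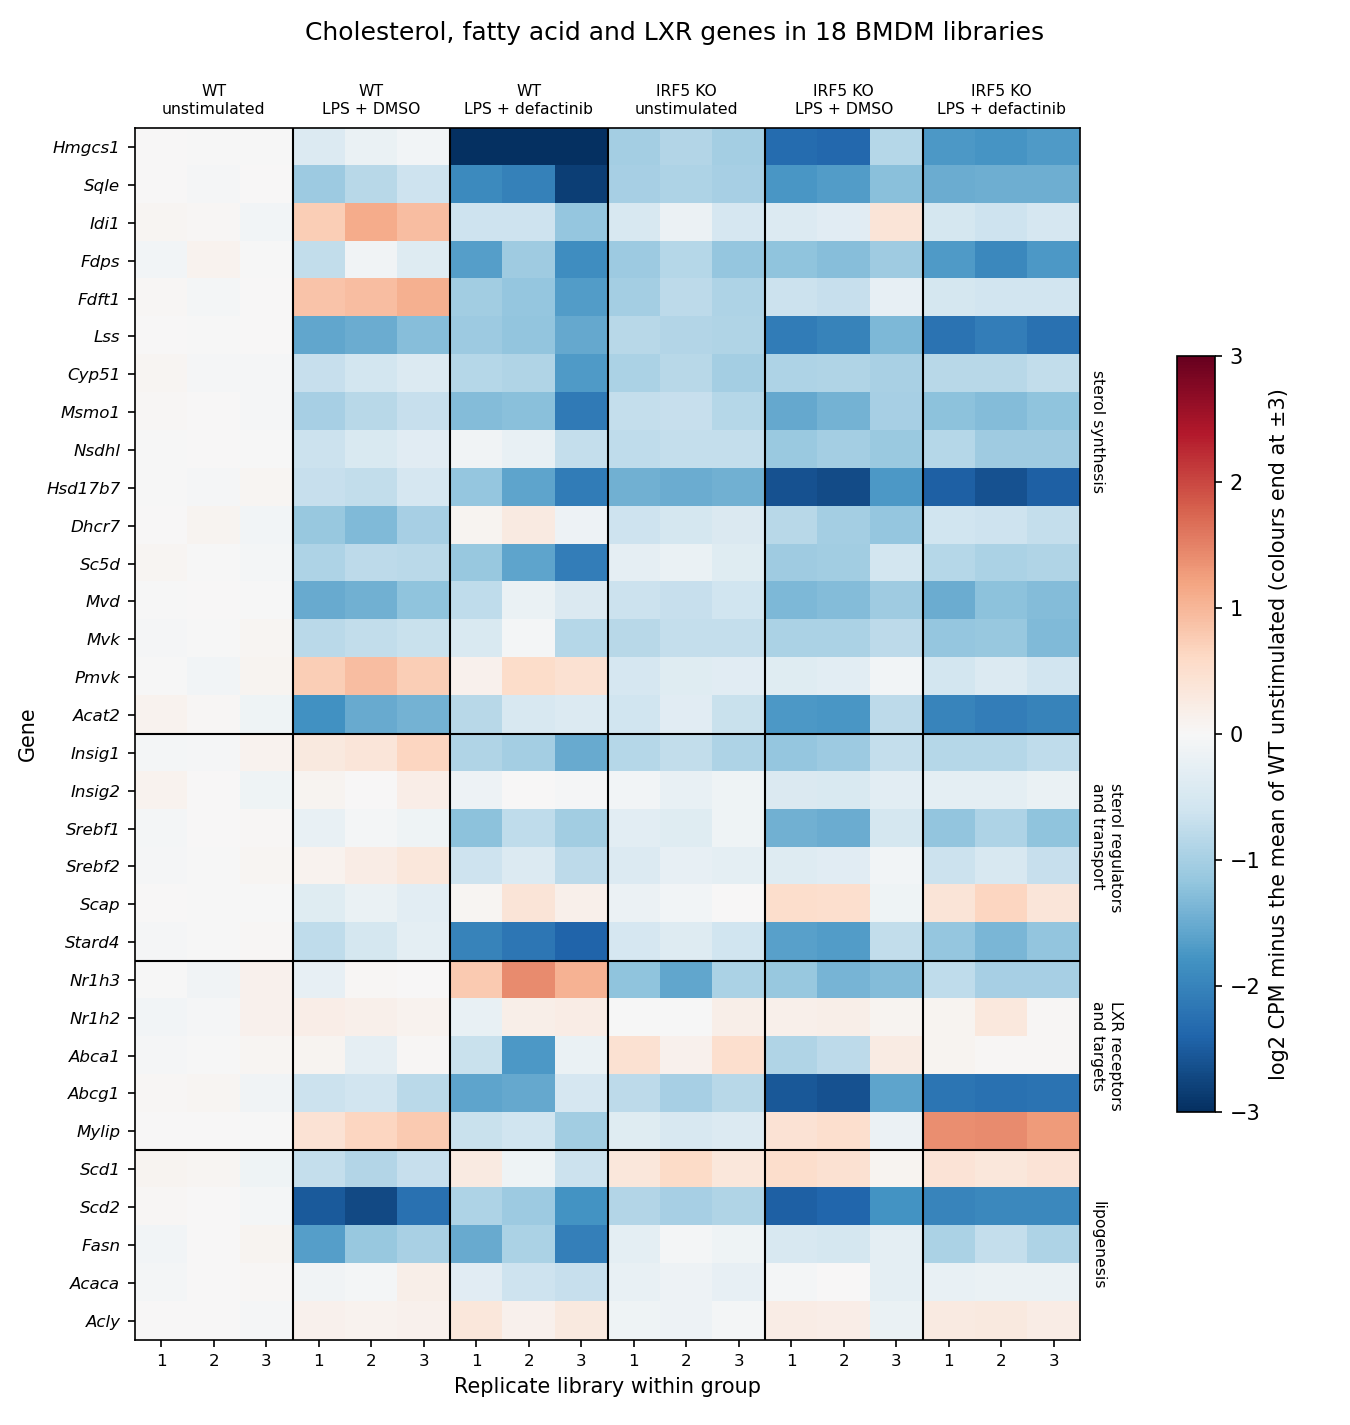
Heat map of the 32 genes (rows, by role) in the 18 libraries (columns, by group), as log2 CPM minus the mean of WT unstimulated, with colours ending at ±3. Hmgcs1 and Mylip are lowest in WT LPS defactinib, Mylip is highest in IRF5 KO LPS defactinib, and replicate 3 of IRF5 KO LPS DMSO differs from replicates 1 and 2 in many rows.

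The promoters of the genes were read from RefSeq, as the 250 bases before the annotated transcript start in GRCm38.p6, the assembly that mm10 names. Of the 32 genes, 25 were matched, and Sqle, Fdps, Fdft1, Stard4, Abcg1, Scd1 and Scd2 were not. Both strands were searched for the sterol regulatory element TCACNCCAC, to which SREBPs bind, the CCAAT box (CCAAT), bound by NF-Y, a partner of SREBPs, the E-box CACGTG, the GC box GGGCGG and the LXR response element, a direct repeat of AGGTCA with any 4 bases between. Genes with several starts were counted as holding a motif if any window did. The CCAAT box was found in 18 of the 25 genes (72.0%), against 37.5% of all 27025 genes with a promoter in the table. The GC box was found in 20 (80.0%, against 35.4%) and the E-box in 6 (24%, against 6.86%). TCACNCCAC was found in 1 gene, Hmgcs1 (against 1.22% of all genes), 137 to 129 bases before its start. The LXR response element was found in none (against 0.0148%), which says only that these letters are not in these windows. No test was made of these shares, and a match is a description of sequence.

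Promoters are shown for 5 genes, chosen after their values were seen because they differed in how they responded: Hmgcs1, which had the deepest fall with defactinib in WT cells, Sc5d, which fell below its unstimulated level, Mvd, which went the other way, Mylip, which fell in WT and rose in IRF5 KO cells, and Fasn, which fell with LPS in WT cells. No annotated GENCODE exon lay in these windows. Capitals mark TCACNCCAC and CCAAT, which reads ATTGG where it lies on the other strand. In Fasn, 2 matches on opposite strands overlap and appear as a single run of capitals.
Hmgcs1, chr13:119690101-119690350, plus strand: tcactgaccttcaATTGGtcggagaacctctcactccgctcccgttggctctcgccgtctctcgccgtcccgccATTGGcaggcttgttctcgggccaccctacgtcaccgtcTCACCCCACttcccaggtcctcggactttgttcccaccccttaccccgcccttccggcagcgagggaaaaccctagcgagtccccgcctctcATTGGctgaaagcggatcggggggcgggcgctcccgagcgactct
Sc5d, chr9:42264301-42264550, minus strand: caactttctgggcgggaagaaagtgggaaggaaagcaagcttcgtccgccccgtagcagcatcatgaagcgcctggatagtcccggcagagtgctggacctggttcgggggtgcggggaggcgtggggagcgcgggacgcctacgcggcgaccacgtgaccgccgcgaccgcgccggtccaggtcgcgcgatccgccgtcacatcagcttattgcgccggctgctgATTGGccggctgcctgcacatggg
Mvd, chr8:122443423-122443672, minus strand: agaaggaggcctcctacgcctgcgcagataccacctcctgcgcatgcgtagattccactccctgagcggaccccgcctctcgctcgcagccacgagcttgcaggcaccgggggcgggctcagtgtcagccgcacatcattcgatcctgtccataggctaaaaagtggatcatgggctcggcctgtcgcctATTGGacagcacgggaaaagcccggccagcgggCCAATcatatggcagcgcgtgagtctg
Mylip, chr13:45389492-45389741, plus strand: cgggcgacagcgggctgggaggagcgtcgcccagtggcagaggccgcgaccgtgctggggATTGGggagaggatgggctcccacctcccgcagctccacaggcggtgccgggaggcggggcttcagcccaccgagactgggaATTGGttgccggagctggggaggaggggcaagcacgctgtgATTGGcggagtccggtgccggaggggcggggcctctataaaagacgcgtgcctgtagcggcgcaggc
Fasn, chr11:120824548-120824797, minus strand: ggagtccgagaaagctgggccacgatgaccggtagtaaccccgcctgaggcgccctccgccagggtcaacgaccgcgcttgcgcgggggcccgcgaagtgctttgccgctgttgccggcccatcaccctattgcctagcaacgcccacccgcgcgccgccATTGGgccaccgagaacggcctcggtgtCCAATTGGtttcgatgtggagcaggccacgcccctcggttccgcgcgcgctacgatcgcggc
The Hmgcs1 window holds 3 CCAAT boxes beside its sterol regulatory element. Mylip and Fasn also hold 3 each, Mvd holds 2, and Sc5d holds 1. Genes that fell and genes that rose with defactinib in WT cells both carried the box.

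Genes were called when the adjusted p (false discovery rate) was below 0.05 and the change exceeded 2-fold, and are said to pass the test when only the first held. The first comparison asked what 2 h of LPS did to these genes in WT cells. Of the 32 genes, 6 (18.8%) were called and all were lower after LPS, against 21.3% of all tested genes called and 9.71% called lower. The share called was thus below the background, and all 6 calls were in 1 direction. Counting every gene that passed the test, 15 fell and 5 rose, against 21.2% and 20.6% of all genes. The median log2 fold change was -0.43 over the 32 genes, against -0.00 over all genes, and -0.69 over the 16 enzymes of sterol synthesis. The libraries of the 2 groups did not overlap for 26 of the 32 genes, against 64.6% of all genes. Between the same groups the 5 dendritic cell markers went from 100 to 110 CPM in sum to 368 to 481 CPM, and the 7 neutrophil markers from 49.6 to 68.1 CPM to 102 to 196 CPM, and their part in the results was not tested.

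Scd2 fell most with LPS. It was counted at 868, 855 and 809 CPM in WT unstimulated and at 146, 128 and 179 CPM in WT LPS DMSO libraries, with no overlap, so that unstimulated cells held 5.59 times as much. The log2 fold change was -2.48 (SE 0.20, adjusted p = 1.89e-07 from edgeR). Fasn, the fatty acid synthase, went from 191, 202 and 212 CPM to 63.8, 91.6 and 102 CPM, also without overlap (-1.23, SE 0.21, adjusted p = 0.000217). Scd1 was at 65.2, 64.3 and 56.4 CPM before and 37.5, 33.8 and 38.1 CPM after LPS (-0.76, SE 0.17, adjusted p = 0.00194), a fall below 2-fold. Of the other lipogenic enzymes, Acaca, the acetyl-CoA carboxylase, was at 0.0059 (SE 0.11, adjusted p = 0.974) and Acly at 0.12 (SE 0.10, adjusted p = 0.337).

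Among the enzymes of sterol synthesis, Mvd, the decarboxylase that makes isopentenyl diphosphate, fell from 85.8, 87.8 and 85.5 CPM to 30.3, 31.7 and 37.1 CPM in WT cells (-1.39, SE 0.13, adjusted p = 6.85e-07). Dhcr7, a late reductase of the route, fell from 24.2, 25.4 and 22.6 CPM to 11, 9.64 and 12 CPM (-1.14, SE 0.13, adjusted p = 3.11e-06). In both genes all LPS libraries lay below all unstimulated ones. Lss, the lanosterol synthase (-1.44, SE 0.16), and Acat2, which joins acetyl-CoA units (-1.58, SE 0.21), were the other called enzymes. Acat2 has a near copy in the genome, Acat3, and only uniquely placed reads were counted. A further 7 enzymes passed the test as lower without reaching 2-fold, among them Sqle, the squalene epoxidase, at 174, 169 and 173 CPM before and 81.0, 97 and 111 CPM after LPS (-0.84, SE 0.18, adjusted p = 0.0017). The other direction was taken by 3 enzymes, which passed the test as higher. Fdft1, the squalene synthase, was at 91.9, 87.1 and 91.6 CPM before and 163, 171 and 189 CPM after LPS (0.95, SE 0.14, adjusted p = 6.84e-05). Idi1, the isopentenyl diphosphate isomerase (0.93, SE 0.19), and Pmvk, the phosphomevalonate kinase (0.80, SE 0.12), were the others. Hmgcs1 was at 194, 227 and 247 CPM after LPS, below the 262, 257 and 259 CPM of unstimulated libraries, and the difference did not pass the test (-0.22, SE 0.28, adjusted p = 0.568).

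Among the regulators and the LXR genes, no gene was called with LPS in WT cells. Insig1 rose from 107, 108 and 118 CPM to 136, 143 and 172 CPM (0.44, SE 0.15, adjusted p = 0.0238). Stard4, which moves cholesterol within the cell, fell from 97, 98.5 and 101 CPM to 58.7, 68.6 and 80.1 CPM (-0.52, SE 0.19, adjusted p = 0.0435). Mylip rose from 13, 13.1 and 12.8 CPM to 17.4, 20.4 and 22.3 CPM (0.63, SE 0.16, adjusted p = 0.00422). Each of these 3 genes separated the groups without overlap. Abcg1 went from 278, 285 and 253 CPM to 174, 183 and 154 CPM, also without overlap, and did not pass the test (-0.67, SE 0.27, adjusted p = 0.0538). Abca1 did not pass the test either (-0.04, SE 0.31, adjusted p = 0.933).

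The same comparison in IRF5 KO cells depended on which IRF5 KO LPS DMSO libraries were used. With all 3 IRF5 KO LPS DMSO libraries, 2 of the 32 genes were called, both lower, against 13.3% of all genes called and 6.28% called lower. They were Abcg1 (-1.29, SE 0.27, adjusted p = 0.00365) and Scd2 (-1.24, SE 0.20, adjusted p = 0.000741). Without replicate 3, 9 genes were called and all were lower, against 26.2% of all genes called and 16.6% called lower. Over the 32 genes, 17 separated the groups without overlap when all libraries were kept, against 40.1% of all genes. When replicate 3 alone stood for the group, 0 genes were called by edgeR, against 2.71% of all genes, 3 passed the test and 8 had an unadjusted p below 0.05, the last 2 counts against 4.76% and 16.7% of all genes. Between these groups the dendritic cell markers went from 112 to 159 CPM in sum to 205 to 269 CPM, and the neutrophil markers from 58.2 to 70.0 CPM to 127 to 142 CPM. Adgre1 went from 291 to 320 CPM to 660, 671 and 365 CPM. Their part in the results was not tested. The 7 genes added without replicate 3 were Abca1, Acat2, Hmgcs1, Hsd17b7, Lss, Srebf1 and Stard4. Hmgcs1 shows the division plainly, at 128, 141 and 127 CPM in IRF5 KO unstimulated and at 52.1, 51.1 and 143 CPM in replicates 1, 2 and 3 after LPS. Its log2 fold change was -0.69 (SE 0.28, adjusted p = 0.0655) with replicate 3 and -1.36 (SE 0.12, adjusted p = 2.93e-08) without it. For Hmgcs1 replicate 3 lay just above the unstimulated range. At 90.3 CPM for Abcg1 it was above the 46.7 and 44.6 CPM of the other two but below the unstimulated 157, 136 and 151 CPM.

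The difference between the genotypes in their LPS response was tested as an interaction, the log2 fold change in WT minus that in IRF5 KO. Scd2 was the 1 gene called (-1.24, SE 0.28, adjusted p = 0.0071), against 9.83% of all genes called and 3.49% called lower. Its fall was larger in WT cells, and remained so without replicate 3 (-1.01, SE 0.24, adjusted p = 0.00244). Without that library Abca1 (1.17, SE 0.39), Abcg1 (1.03, SE 0.31), Hmgcs1 (1.14, SE 0.15) and Srebf1 (1.08, SE 0.16) were called too, against 23.6% of all genes, each of them falling further in IRF5 KO than in WT cells. Scd2 (-1.64, SE 0.27) and Acat2 (-1.35, SE 0.22) were called with replicate 3 alone, against 6.48% of all genes. Without WT LPS DMSO replicate 3, 2 genes were called, against 8.31% of all genes, with Fasn added.

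The second comparison asked what defactinib did to LPS-stimulated WT cells. Of the 32 genes, 12 were called, 8 lower and 4 higher, against 29.1% of all genes called, 18.6% lower and 10.4% higher. The called share of the 32 genes was 37.5%, and 24 of them separated the groups without overlap, against 62.5% of all genes. At the test alone, 16 fell and 7 rose, against 28.6% and 28.4% of all genes. The median log2 fold change was -0.49, against 0.09 over all genes. The median was -0.62 over sterol synthesis, -0.84 over regulators and transport, -0.44 over LXR receptors and targets and 0.13 over lipogenesis.

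Hmgcs1 fell most of the 32 genes. Its level was 194, 227 and 247 CPM in WT LPS DMSO and 26, 22.9 and 19.1 CPM in WT LPS defactinib libraries, a 9.82-fold ratio of the means with no overlap. The log2 fold change was -3.30 (SE 0.31, adjusted p = 6.55e-07). Fdft1 fell from 163, 171 and 189 CPM to 43.7, 40.6 and 28.4 CPM (-2.21, SE 0.15, adjusted p = 2.09e-08), a 4.64-fold ratio. Sqle fell from 81.0, 97 and 111 CPM to 45.7, 42.4 and 24.2 CPM (-1.36, SE 0.19, adjusted p = 2.35e-05). Idi1 (-1.70, SE 0.19) and Fdps (-1.10, SE 0.21) completed the 5 called enzymes that fell, and Fdps fell just short of 2-fold without WT LPS DMSO replicate 2 (-0.90) or without WT LPS defactinib replicate 1 (-0.98) or 3 (-0.92). A further 5 enzymes, Cyp51, Msmo1, Hsd17b7, Sc5d and Pmvk, passed the test as lower by -0.41 to -0.93.

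Other enzymes of the same route rose with defactinib. Dhcr7 rose from 11, 9.64 and 12 CPM to 25.5, 28.8 and 21.7 CPM (1.22, SE 0.13, adjusted p = 1.51e-06), which is close to its unstimulated 24.2, 25.4 and 22.6 CPM. Mvd rose from 30.3, 31.7 and 37.1 CPM to 50.8, 75.8 and 63.9 CPM (0.94, SE 0.13, adjusted p = 2.35e-05), below 2-fold and below its unstimulated libraries. Acat2 was called at 1.01 (SE 0.21, adjusted p = 0.000887), and was at 0.92 without WT LPS DMSO replicate 1 and at 0.97 and 0.95 without WT LPS defactinib replicate 2 and 3. All 3 were among the enzymes that LPS had lowered.

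Of the regulators, Insig1 fell from 136, 143 and 172 CPM to 59.0, 54.8 and 39.1 CPM (-1.56, SE 0.15, adjusted p = 7.01e-07). Stard4 fell from 58.7, 68.6 and 80.1 CPM to 24.7, 21.9 and 18.8 CPM (-1.66, SE 0.20, adjusted p = 6.75e-06), again without overlap. The SREBP genes themselves passed the test as lower without reaching 2-fold, Srebf1 at -0.86 (SE 0.20, adjusted p = 0.00184) and Srebf2 at -0.82 (SE 0.11, adjusted p = 1.74e-05). Scap was higher at 0.49 (SE 0.15, adjusted p = 0.00963). Insig2, the second INSIG gene, was at -0.16 (SE 0.09, adjusted p = 0.159).

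Among LXR receptors and targets, Nr1h3 rose from 4.68, 5.65 and 5.62 CPM to 9.53, 14.8 and 11.5 CPM (1.17, SE 0.18, adjusted p = 7.19e-05). Every WT LPS defactinib library lay above every WT LPS DMSO library. Without WT LPS defactinib replicate 2 the log2 fold change of Nr1h3 was 0.99, just below 2-fold (adjusted p = 0.000489). Mylip fell from 17.4, 20.4 and 22.3 CPM to 8.12, 8.57 and 6.32 CPM (-1.39, SE 0.16, adjusted p = 4.88e-06). The receptor rose while this target fell, and the exporters did not pass the test with all libraries kept. Abcg1 was at 174, 183 and 154 CPM in WT LPS DMSO and at 91.2, 94.3 and 192 CPM in WT LPS defactinib libraries (-0.44, SE 0.27, adjusted p = 0.167), with replicate 3 above the DMSO libraries and replicates 1 and 2 below them. Abca1 was at 65.2, 31.1 and 90.4 CPM with defactinib, against 110, 85.9 and 105 CPM (-0.69, SE 0.31, adjusted p = 0.0711). Without WT LPS defactinib replicate 3 Abca1 was called lower (-1.05), against 30.3% of all genes called. Nr1h2 was at -0.08 (SE 0.11, adjusted p = 0.558).

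In lipogenesis, Scd2 rose from 146, 128 and 179 CPM to 445, 398 and 242 CPM (1.26, SE 0.20, adjusted p = 7.37e-05), still below its unstimulated 809 to 868 CPM. Scd1 was at 74.5, 56.4 and 39.8 CPM with defactinib, each above the 33.8 to 38.1 CPM of WT LPS DMSO (0.64, SE 0.17, adjusted p = 0.00498). Fasn was at 71.2, 104 and 48.3 CPM, overlapping the 63.8, 91.6 and 102 CPM of WT LPS DMSO (-0.21, SE 0.21, adjusted p = 0.408). Acaca passed the test as lower at -0.55 (SE 0.11, adjusted p = 0.000484). The 5 dendritic cell markers summed to 368 to 481 CPM in WT LPS DMSO and to 53.5 to 113 CPM in WT LPS defactinib libraries. Of the 4 that were tested, Ccr7 and Zbtb46 were called lower and Dpp4 higher. The 9 macrophage markers summed to 11939 to 12666 CPM in WT LPS DMSO and to 13597 to 17547 CPM in WT LPS defactinib libraries, with Adgre1 called higher and Mertk lower. The mitochondrial share of counts was 0.671 to 0.913% in WT LPS DMSO and 1.05 to 1.26% in WT LPS defactinib libraries, above every other library. The part of culture composition or RNA quality in the results was not tested.

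**Figure D2:**
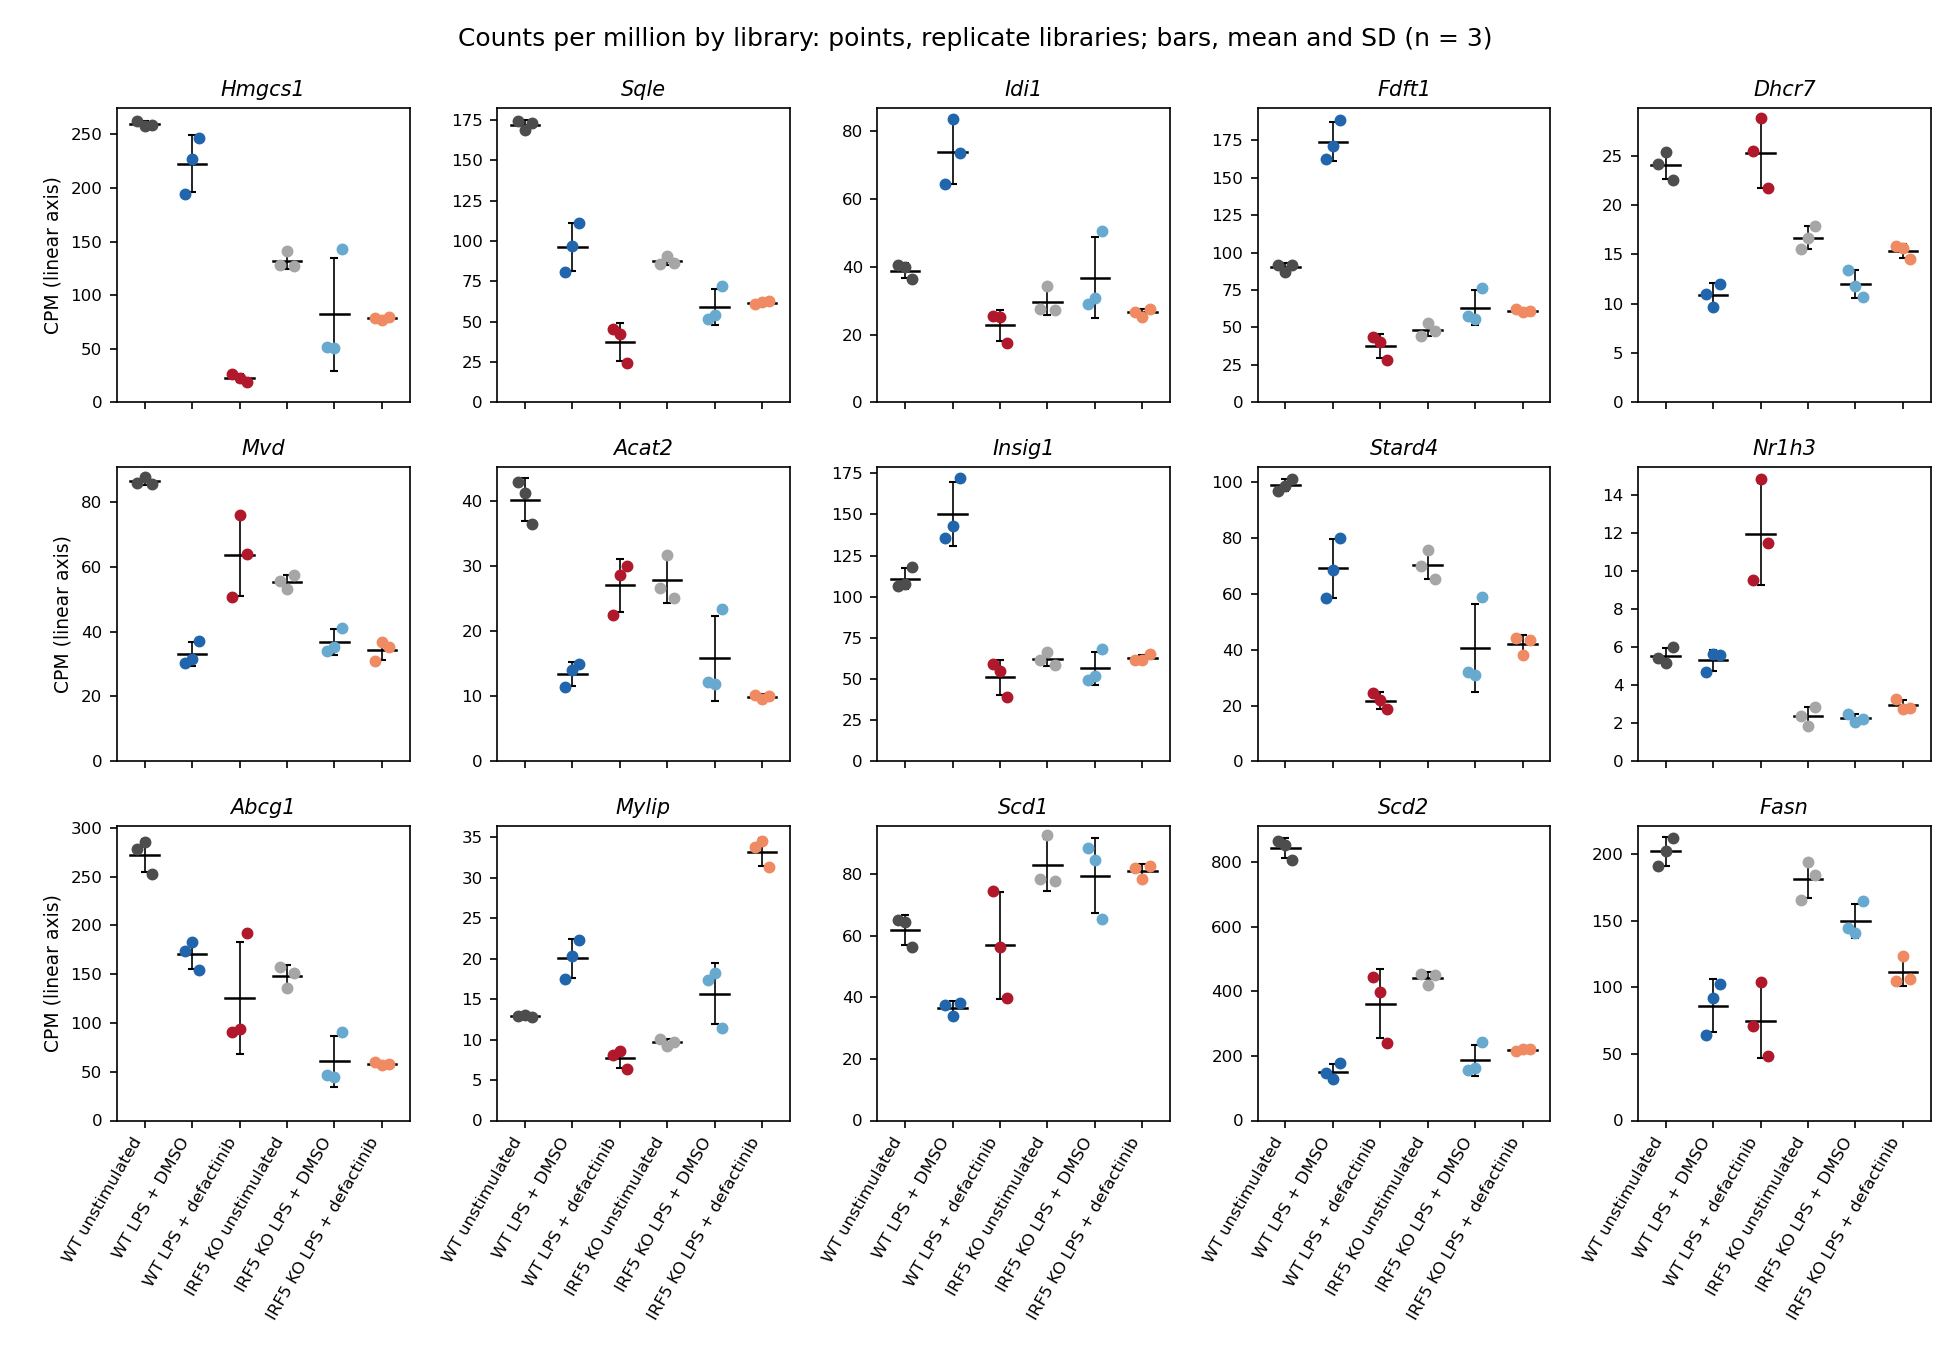
CPM on linear axes for 15 genes in the 6 groups, with a point for each library and bars for the mean and SD (n = 3). Hmgcs1, Fdft1, Insig1 and Stard4 are lowest in WT LPS defactinib, Mylip is highest in IRF5 KO LPS defactinib at 31.3 to 34.6 CPM, and the raised point of IRF5 KO LPS DMSO in Hmgcs1 is replicate 3 at 143 CPM.

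Against WT unstimulated, WT LPS defactinib libraries had 14 of the 32 genes called lower and 1 higher, against 24.9% of all genes called, 15.8% lower and 9.1% higher. Of the 14, 9 were enzymes of sterol synthesis, and 28 of the 32 genes separated the groups, against 61.5% of all genes. Hmgcs1 stood 11.5-fold below unstimulated cells in the ratio of means (-3.52, SE 0.31, adjusted p = 9.38e-07). Sqle, at 45.7, 42.4 and 24.2 CPM against 174, 169 and 173 CPM (-2.20, SE 0.19), and Stard4, at 24.7, 21.9 and 18.8 CPM against 97, 98.5 and 101 CPM (-2.18, SE 0.20), followed. Sc5d, Msmo1, Hsd17b7, Fdps, Fdft1, Lss and Cyp51 were called at -1.11 to -1.56, as were Fasn (-1.44, SE 0.21), Scd2 (-1.22, SE 0.20), Insig1 (-1.12, SE 0.15) and Abcg1 (-1.11, SE 0.27). Nr1h3 was the gene called higher (1.11, SE 0.18, adjusted p = 0.000178). Dhcr7, with 25.5, 28.8 and 21.7 CPM against 24.2, 25.4 and 22.6 CPM, overlapped (0.07, SE 0.12, adjusted p = 0.634). Several of these calls rested on single libraries. Without WT LPS defactinib replicate 3, Cyp51 (-0.87), Insig1 (-0.95) and Scd2 (-0.99) were below 2-fold, as were Abcg1 without replicate 1 (-0.90) or 2 (-0.94) and Nr1h3 without replicate 2 (0.92). The comparison shares its defactinib libraries with the one before. From WT unstimulated to WT LPS defactinib, neutrophil markers went from 49.6 to 68.1 CPM in sum to 107 to 138 CPM. Macrophage markers went from 12313 to 12532 CPM to 13597 to 17547 CPM, and dendritic cell markers overlapped, at 100 to 110 CPM and 53.5 to 113 CPM. The mitochondrial share of counts went from 0.641 to 0.709% to 1.05 to 1.26%. The part of these in the results was not tested.

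Defactinib in IRF5 KO cells was the third comparison. Mylip was the 1 gene of 32 called, against 0.919% of all genes called and 0.16% called higher, and it was the 1 gene that passed the test, against 3.36% of all genes. At an unadjusted p below 0.05 there were 9 genes, against 23.3% of all genes. The libraries separated for 12 of the 32 genes, against 26.6% of all genes. Mylip was counted at 17.4, 18.3 and 11.4 CPM in IRF5 KO LPS DMSO and at 33.8, 34.6 and 31.3 CPM in IRF5 KO LPS defactinib libraries, without overlap (1.09, SE 0.16, adjusted p = 0.00354). Its direction was opposite to that in WT cells. Without replicate 3 of IRF5 KO LPS DMSO it still rose, at 0.90 (SE 0.12, adjusted p = 0.000472), below 2-fold. Of the 32 genes 0 were called by edgeR without that library, against 1.45% of all genes, 2 passed the test and 10 had an unadjusted p below 0.05, against 7.83% and 23% of all genes. With replicate 3 alone Mylip rose further (1.53, SE 0.17) and Acat2 fell (-1.25, SE 0.18), the 2 genes called, against 19.2% of all genes. In that fit 14 genes passed the test and 16 had an unadjusted p below 0.05, against 41% and 49% of all genes. Hmgcs1, at 79.0, 76.4 and 79.7 CPM with defactinib, lay between the 51.1 and 52.1 CPM of replicates 2 and 1 and the 143 CPM of replicate 3. Its log2 fold change was -0.07 (SE 0.28, adjusted p = 0.913), 0.60 (SE 0.11, adjusted p = 0.00402) without replicate 3, and -0.89 (SE 0.14, adjusted p = 8.11e-05) with replicate 3 alone, so its direction followed the libraries used. Insig1 (0.15, SE 0.15, adjusted p = 0.564), Stard4 (0.05, SE 0.20, adjusted p = 0.912) and Fdft1 (-0.05, SE 0.14, adjusted p = 0.877) did not pass the test, nor did Scd2 (0.23, SE 0.19, adjusted p = 0.507). Without replicate 3 they were at 0.31 for Insig1, 0.42 for Stard4, 0.11 for Fdft1 and 0.46 for Scd2, and did not pass the test, with an adjusted p of 0.050036 for Stard4. With replicate 3 alone they were at -0.13, -0.50, -0.34 and -0.16, where Stard4 passed the test (adjusted p = 0.016). The macrophage markers summed to 11440 to 14731 CPM in IRF5 KO LPS DMSO and to 20325 to 21306 CPM in IRF5 KO LPS defactinib libraries, and the mitochondrial share of counts was 0.514 to 0.797% and 0.835 to 0.926%. The part of these in the results was not tested.

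The difference between the genotypes in the defactinib response was again tested as an interaction, WT minus IRF5 KO. It was called for 10 of the 32 genes, 7 lower and 3 higher, against 22.8% of all genes called, 12.3% lower and 10.5% higher. Hmgcs1 had the largest value (-3.23, SE 0.41, adjusted p = 2.52e-05), then Mylip (-2.47, SE 0.23, adjusted p = 1.07e-06) and Fdft1 (-2.17, SE 0.20, adjusted p = 1.43e-06). Stard4 (-1.71, SE 0.28), Insig1 (-1.71, SE 0.21), Sqle (-1.42, SE 0.26) and Idi1 (-1.23, SE 0.27) were the other genes with a lower response in WT cells. Acat2 (1.68, SE 0.30), Mvd (1.04, SE 0.18) and Scd2 (1.03, SE 0.28) had the higher response in WT cells. Gm26917 was at 132 to 142 CPM in WT LPS DMSO and 22252 to 41939 CPM in WT LPS defactinib libraries. In IRF5 KO libraries it was at 26817, 26679 and 113 CPM with LPS DMSO and 11392 to 18571 CPM with LPS defactinib. The WT comparison thus crossed this division and that of IRF5 KO replicates 1 and 2 did not. The part of this division in the results was not tested.

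Without replicate 3 of IRF5 KO LPS DMSO the interaction was called for 11 genes, against 31.6% of all genes. The 7 lower genes were called again, with Hmgcs1 at -3.90 (SE 0.16) and Mylip at -2.29 (SE 0.17), and Abca1, Hsd17b7 and Srebf1 joined them. Acat2 was called again (1.28, SE 0.19), while Mvd (0.95, SE 0.17) and Scd2 (0.80, SE 0.24) passed the test below 2-fold. Mvd was also below 2-fold without WT LPS defactinib replicate 2 (0.92), and Scd2 when replicate 2 of WT LPS DMSO (0.96) or replicate 1 (0.91) or 2 (0.97) of WT LPS defactinib was left out. The interaction was called for 10 genes with replicate 3 alone, against 19.1% of all genes. Hmgcs1 was at -2.39 (SE 0.19), Mylip at -2.90 (SE 0.21), Fdft1 at -1.86 (SE 0.22), Insig1 at -1.41 (SE 0.22), Stard4 at -1.14 (SE 0.20), Sqle at -1.11 (SE 0.30), Acat2 at 2.28 (SE 0.22), Scd2 at 1.44 (SE 0.27) and Mvd at 1.24 (SE 0.21), with Lss (1.05, SE 0.17) added. Idi1 then passed the test below 2-fold (-0.74). Nr1h3 passed the test without reaching 2-fold with all libraries and without replicate 3 (0.80, SE 0.26, adjusted p = 0.0246, and 0.81, SE 0.27, adjusted p = 0.0178).

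**Figure D3:**
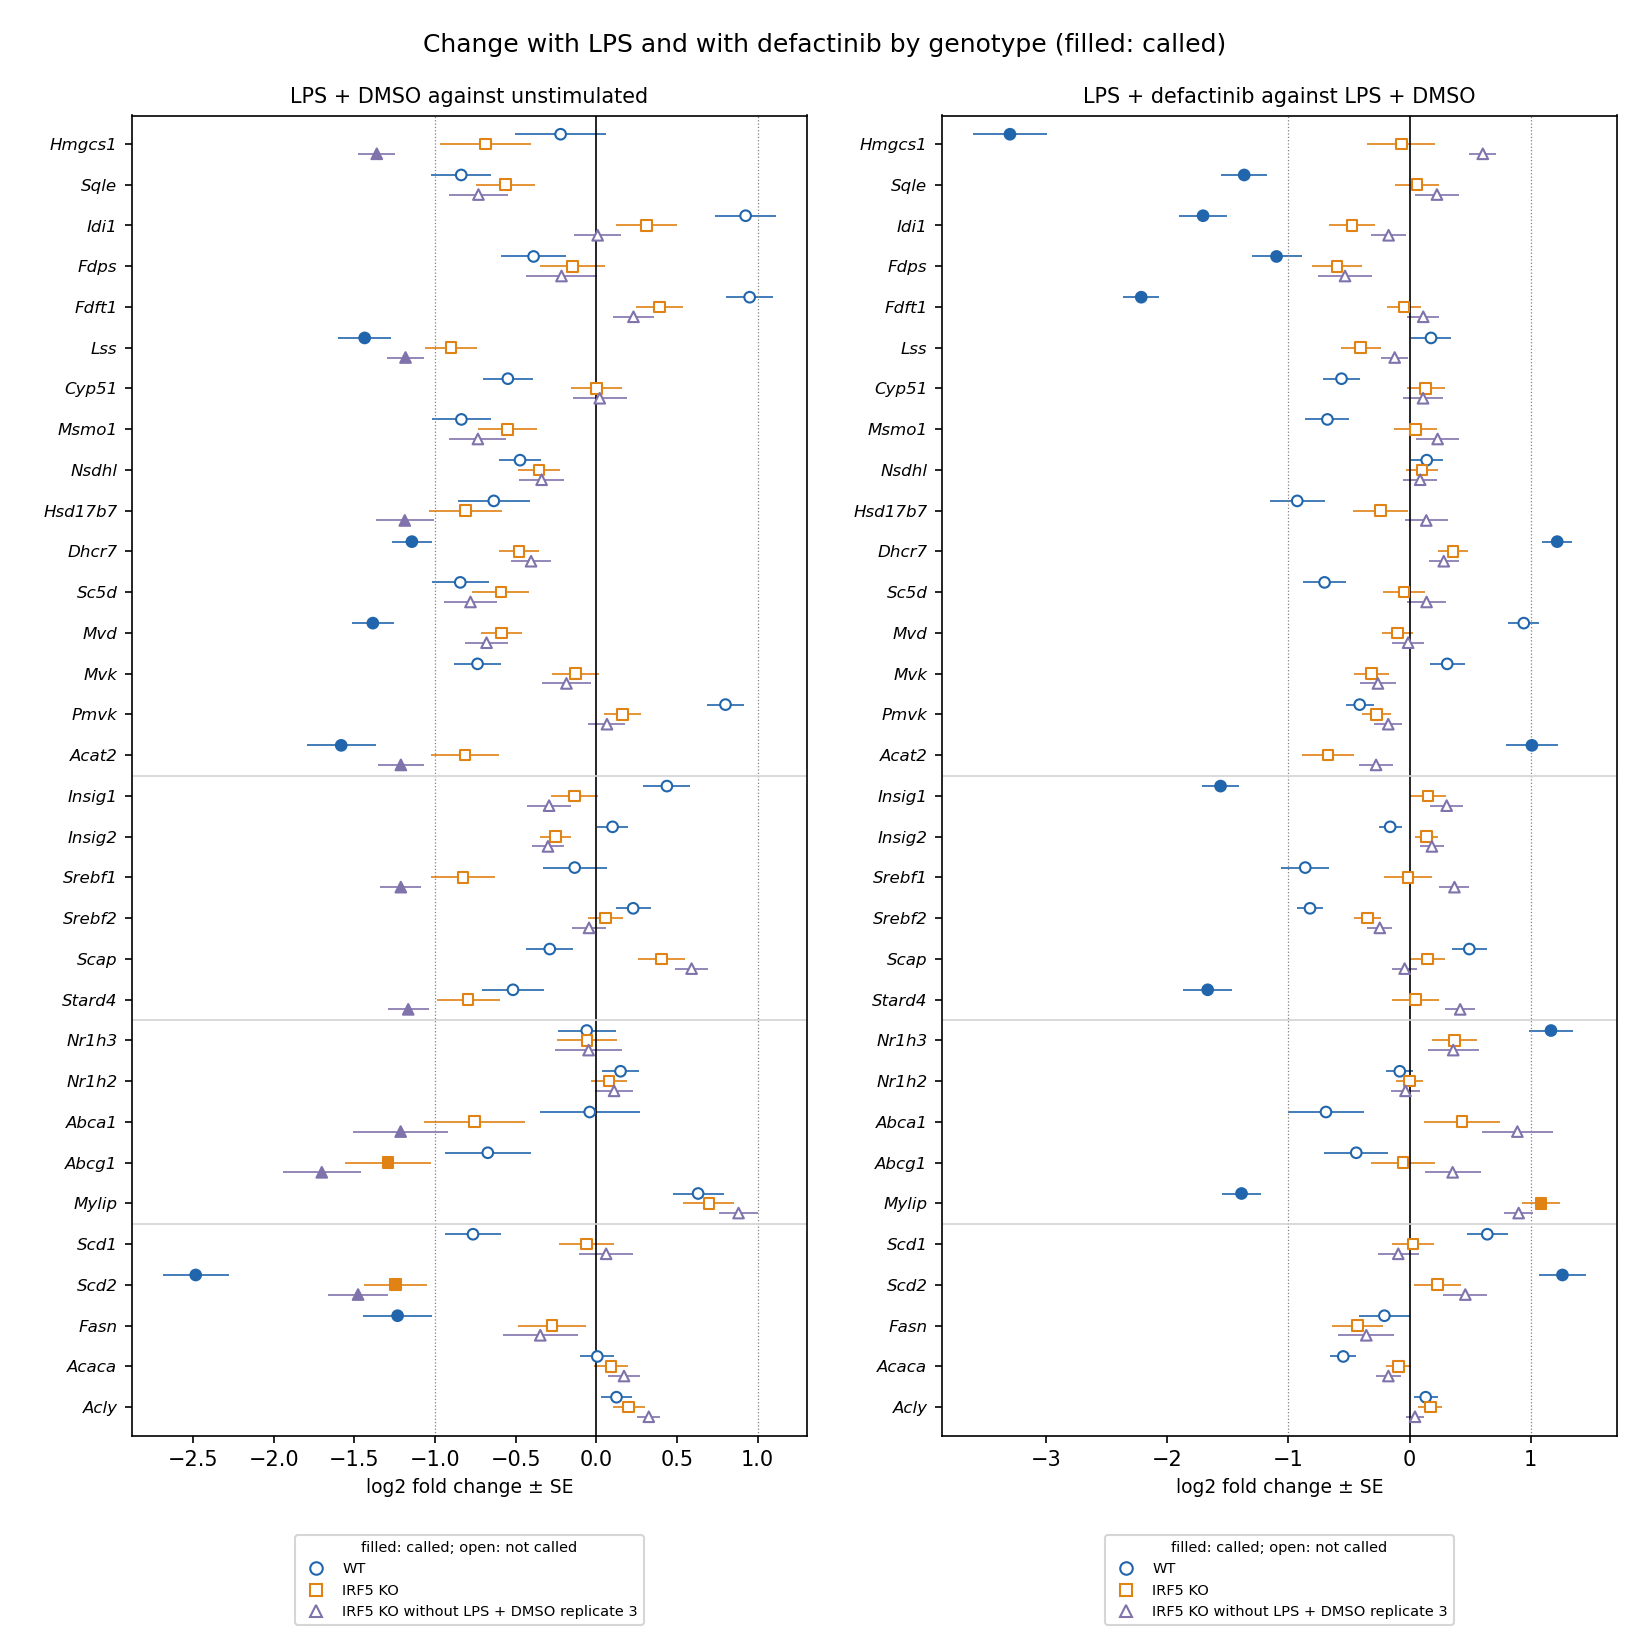
Log2 fold change ± SE for each gene with LPS (left) and with defactinib after LPS (right), in WT, in IRF5 KO and in IRF5 KO without LPS DMSO replicate 3, with filled symbols for called genes and dotted lines at 2-fold. With defactinib Hmgcs1 lies at -3.30 in WT and -0.07 in IRF5 KO cells, and Mylip at -1.39 and 1.09.

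IRF5 KO LPS defactinib libraries were also compared with IRF5 KO unstimulated. The fold changes here do not use the IRF5 KO LPS DMSO libraries, but those libraries enter the shared estimate of spread. Of the 32 genes, 6 were called, 5 lower and 1 higher, against 24% of all genes called, 16.2% lower and 7.85% higher. Without IRF5 KO LPS DMSO replicate 3 the same 6 genes were called, against 25.3% of all genes. The groups did not overlap for 22 of the 32 genes, against 72.5% of all genes. Mylip rose from 10, 9.26 and 9.70 CPM to 33.8, 34.6 and 31.3 CPM (1.78, SE 0.16, adjusted p = 2.36e-06). Acat2 (-1.49, SE 0.21), Abcg1 (-1.35, SE 0.27), Lss (-1.30, SE 0.16), Hsd17b7 (-1.05, SE 0.23) and Scd2 (-1.02, SE 0.20) fell. The last 2 were just below 2-fold without IRF5 KO LPS defactinib replicate 2 (-0.99 for Hsd17b7) or IRF5 KO unstimulated replicate 1 (-0.996 for Scd2). Abcg1 was at 59.6, 57.3 and 58.1 CPM against 157, 136 and 151 CPM, with no overlap. Hmgcs1 passed the test at -0.76 (SE 0.28, adjusted p = 0.0344), below 2-fold, where the same comparison in WT cells gave -3.52. Between these IRF5 KO groups the dendritic cell markers went from 112 to 159 CPM in sum to 256 to 269 CPM, the neutrophil markers from 58.2 to 70.0 CPM to 130 to 154 CPM, and the macrophage markers from 12102 to 16607 CPM to 20325 to 21306 CPM. The mitochondrial share of counts went from 0.477 to 0.540% to 0.835 to 0.926%. The part of these in the results was not tested.

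The last comparison was between the genotypes in each condition. In unstimulated cells 3 genes were called, all higher in WT, against 7.31% of all genes called and 3.8% called higher in WT. At the test alone 17 of the 32 genes were higher in WT and 0 lower, against 7.93% and 7.37% of all genes, and 13 of the 17 were enzymes of sterol synthesis. The groups did not overlap for 28 of the 32 genes, against 51.4% of all genes. The median log2 difference over the 16 enzymes of the list was 0.75, against -0.01 over all genes. Hsd17b7, a 3-ketosteroid reductase of the route, was at 75.8, 74.7 and 79.9 CPM in WT and 28.4, 27.4 and 28.2 CPM in IRF5 KO unstimulated libraries (1.45, SE 0.23, adjusted p = 0.000345). Nr1h3 was at 5.45, 5.16 and 6.02 CPM against 2.38, 1.89 and 2.85 CPM (1.22, SE 0.18, adjusted p = 0.000255). Both separated the genotypes without overlap. Fdps was called at 1.03 (SE 0.20, adjusted p = 0.00219), and was at 0.98 without WT unstimulated replicate 2 and 0.97 without IRF5 KO unstimulated replicate 3. Hmgcs1 (0.97, SE 0.28, adjusted p = 0.0285), Sqle (0.97, SE 0.19, adjusted p = 0.00181), Scd2 (0.93, SE 0.20, adjusted p = 0.00371) and Fdft1 (0.90, SE 0.14, adjusted p = 0.000421) were higher in WT below 2-fold. The 9 macrophage markers summed to 12313 to 12532 CPM in WT and 12102 to 16607 CPM in IRF5 KO unstimulated libraries. Of these markers Mrc1 was called higher (1.46) and Adgre1 lower (-2.04) in WT, and the same 2 were called in the same directions with LPS DMSO and with LPS defactinib. Of other lists, Dpp4 (-2.14), Kit (-1.30) and Ly6g (-2.06) were lower in WT unstimulated libraries. As whole lists, the dendritic cell markers summed to 100 to 110 CPM in WT and 112 to 159 CPM in IRF5 KO unstimulated libraries. The neutrophil markers overlapped, at 49.6 to 68.1 CPM and 58.2 to 70.0 CPM. Mast cell and basophil markers were at 6.74 to 7.81 CPM and 15.5 to 21.1 CPM. With LPS DMSO Mertk was at 146, 182 and 124 CPM in WT against 25.8, 25.7 and 42.4 CPM in IRF5 KO libraries. The mitochondrial share of counts was 0.641 to 0.709% in WT and 0.477 to 0.540% in IRF5 KO unstimulated libraries. The part of culture composition or RNA quality in these differences was not tested.

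With LPS and DMSO, 9 genes were called, 8 higher in WT and 1 lower, against 25.8% of all genes called, 14% higher and 11.8% lower. The 8 were Hsd17b7 (1.63, SE 0.23), Abcg1 (1.49, SE 0.27), Fdft1 (1.46, SE 0.15), Hmgcs1 (1.44, SE 0.29), Insig1 (1.41, SE 0.15), Nr1h3 (1.22, SE 0.19), Pmvk (1.05, SE 0.12) and Idi1 (1.00, SE 0.19), the last 2 below 2-fold when single libraries were left out. For Pmvk these were WT LPS DMSO replicate 2 (0.97) and IRF5 KO LPS DMSO replicate 1 (0.98) or 2 (0.99), and Idi1 ranged from 0.85 to 1.30 over such fits. Hmgcs1 had an adjusted p of 0.0514 when only these 2 groups were fitted, and was at 2.11 (SE 0.12) once replicate 3 of IRF5 KO LPS DMSO was left out. Insig1 was at 136, 143 and 172 CPM in WT and 49.5, 52.0 and 68.0 CPM in IRF5 KO LPS DMSO libraries. Scd1 was the gene lower in WT, at 37.5, 33.8 and 38.1 CPM against 88.5, 84.5 and 65.5 CPM (-1.12, SE 0.17, adjusted p = 8.49e-05). Neither gene overlapped between the genotypes, also with replicate 3 kept, and 18 of the 32 genes separated them, against 50.9% of all genes. The 5 dendritic cell markers summed to 368 to 481 CPM in WT and 205 to 269 CPM in IRF5 KO LPS DMSO libraries. The macrophage markers overlapped, at 11939 to 12666 CPM and 11440 to 14731 CPM, as did the neutrophil markers, at 102 to 196 CPM and 127 to 142 CPM. The part of these markers in the differences was not tested. Without replicate 3, 11 genes were called, against 34.5% of all genes, adding Srebf1 (1.33, SE 0.13) and Stard4 (1.14, SE 0.13). With replicate 3 alone 4 genes were called, Fdft1 (1.17, SE 0.18), Insig1 (1.12, SE 0.19), Hsd17b7 and Nr1h3, against 16% of all genes, with Hmgcs1 at 0.62 (SE 0.15), Abcg1 at 0.90 (SE 0.32) and Scd1 at -0.86, below 2-fold.

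With LPS and defactinib, 5 genes were called, 3 higher in WT and 2 lower, against 17.3% of all genes called, 8.45% higher and 8.87% lower. Nr1h3 was at 9.53, 14.8 and 11.5 CPM in WT and 3.26, 2.78 and 2.79 CPM in IRF5 KO libraries (2.02, SE 0.19, adjusted p = 6.73e-07). Acat2 (1.44, SE 0.21) and Abcg1 (1.11, SE 0.27) were also higher in WT, and Abcg1 lost its call without WT LPS defactinib replicate 3 (0.69, adjusted p = 0.0235). Mylip was at 8.12, 8.57 and 6.32 CPM in WT and 33.8, 34.6 and 31.3 CPM in IRF5 KO libraries (-2.12, SE 0.16, adjusted p = 1.05e-07). Hmgcs1 was at 26, 22.9 and 19.1 CPM against 79.0, 76.4 and 79.7 CPM (-1.79, SE 0.29, adjusted p = 0.000195). Over the 32 genes 24 separated the genotypes, against 51.5% of all genes. Mylip and Hmgcs1 were lower in WT here and not in unstimulated libraries, where Hmgcs1 was higher in WT and Mylip did not pass the test (0.42, SE 0.16, adjusted p = 0.0896). Without WT LPS defactinib replicate 1, 8 genes were called, against 17.1% of all genes, with Mvd, Pmvk and Stard4 added. Without replicate 3 of that group 7 were called, against 16.2% of all genes, with Abca1 (-1.14), Hsd17b7 (1.17) and Lss (1.05) added. The 5 dendritic cell markers summed to 53.5 to 113 CPM in WT and 256 to 269 CPM in IRF5 KO LPS defactinib libraries, and the 9 macrophage markers to 13597 to 17547 CPM and 20325 to 21306 CPM. Their part in these differences was not tested.

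**Figure D4:**
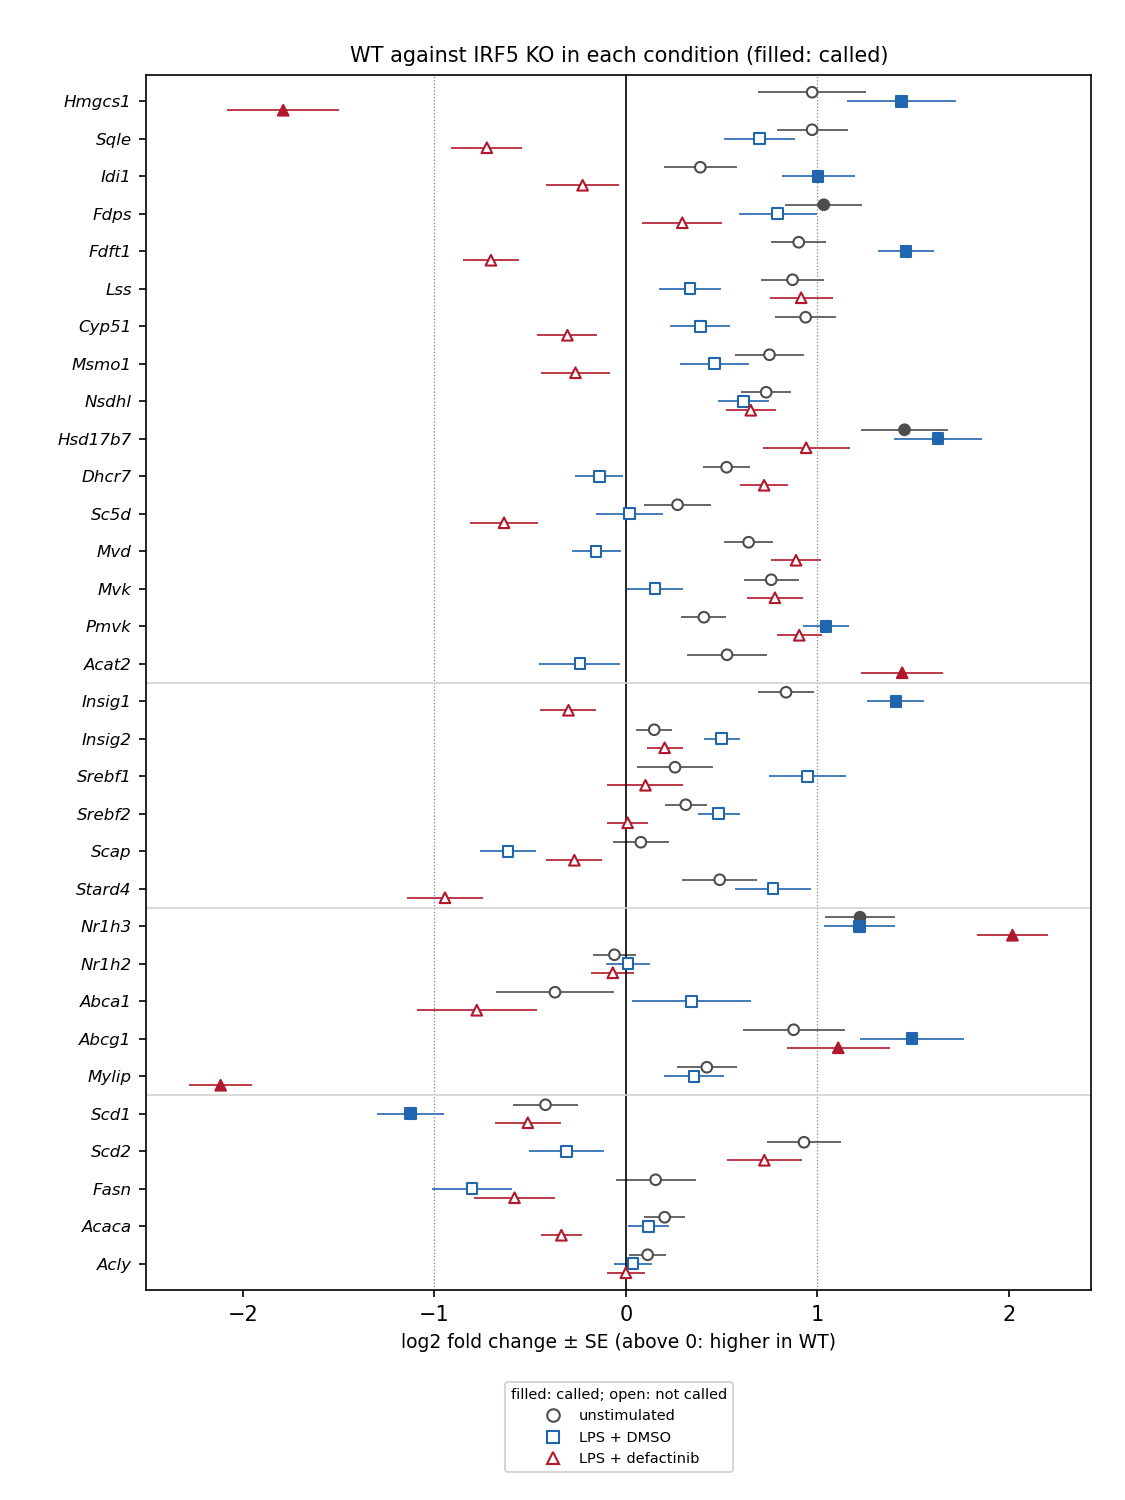
Log2 fold change ± SE between WT and IRF5 KO for each gene in unstimulated, LPS DMSO and LPS defactinib cells, with values above 0 higher in WT and filled symbols for called genes. Nr1h3 is called above 0 in all 3 conditions, at 1.22, 1.22 and 2.02, while Hmgcs1 goes from 1.44 with DMSO to -1.79 with defactinib.

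Over the 11 comparisons 22 of the 32 genes (68.8%) were called at least once, against 57.2% of all genes tested, and 10 in none. The 10 were Nsdhl and Mvk of sterol synthesis, Insig2, Srebf1, Srebf2 and Scap of the regulators, Nr1h2 and Abca1 of the LXR group, and Acaca and Acly of lipogenesis. The smallest adjusted p over the 11 comparisons was 0.317 for Nr1h2 and 0.0576 for Abca1. Nr1h2 was steady, at 58.0 to 83.2 CPM over the 18 libraries, whereas Abca1 was spread, from 31.1 CPM in WT LPS defactinib replicate 2 to 145 CPM in IRF5 KO unstimulated replicate 3. Srebf1 and Abca1 were called in comparisons without IRF5 KO LPS DMSO replicate 3, as given above. Srebf1 was also called for LPS defactinib against unstimulated in WT without WT unstimulated replicate 1 (-1.03) or WT LPS defactinib replicate 2 (-1.13). Without WT LPS defactinib replicate 3, Abca1 was called with defactinib in WT (-1.05) and against WT unstimulated (-1.10). It was then also called between genotypes with LPS defactinib (-1.14) and for the defactinib interaction (-1.47).

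Another 45 genes of the same pathways were listed, of which 40 were tested. In WT cells with LPS, 3 of them were called higher and 7 lower, 25% against 21.3% of all genes. The higher were Ch25h, which makes 25-hydroxycholesterol (3.14, SE 0.94, adjusted p = 0.014), Acsl1, an acyl-CoA synthetase (2.46, SE 0.46), and Dgat2, of triglyceride synthesis (1.28, SE 0.35). The lower included Lpin1, a phosphatidate phosphatase (-3.58, SE 0.19, adjusted p = 2.29e-09), Elovl6, a fatty acid elongase (-1.94, SE 0.26), Rxra, the partner receptor of LXR (-1.51, SE 0.18), and Fads1, a desaturase (-1.23, SE 0.09). With defactinib in WT cells, 1 was called higher and 5 lower, 15% against 29.1% of all genes. Lpin1 rose (1.88, SE 0.18, adjusted p = 7.77e-07). The lower included Ch25h (-4.65, SE 1.02), Acsl1 (-1.87, SE 0.45) and Arl4c (-1.55, SE 0.34), an LXR target. In IRF5 KO cells 0 of the 40 were called with defactinib by edgeR, 2 passed the test and 15 had an unadjusted p below 0.05, against 0.919%, 3.36% and 23.3% of all genes. Without IRF5 KO LPS DMSO replicate 3 these counts were 0, 3 and 15, against 1.45%, 7.83% and 23% of all genes, and with replicate 3 alone 4, 17 and 21, against 19.2%, 41% and 49%. The interaction with defactinib was called for 6 of the 40 with all libraries (15%, against 22.8% of all genes), among them Lpin1 (1.40) and Elovl6 (1.36) with the higher response in WT cells. Both were called again without IRF5 KO LPS DMSO replicate 3 (1.48 and 1.33) and with replicate 3 alone (1.26 and 1.47). Acsl1 (-1.80) and Arl4c (-1.30) had the lower response in WT cells with all libraries and without replicate 3 (-2.69 and -1.98). With replicate 3 alone they did not pass the test, Acsl1 at -0.83 (SE 0.57, adjusted p = 0.309) and Arl4c at -0.46 (SE 0.37, adjusted p = 0.397).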

How the data were processed

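RNA-seq of 18 libraries was analysed from the deposited table of raw counts per gene. Per the labels and the study's methods the authors aligned paired reads with STAR to mm10, and per the file header they counted read pairs with featureCounts 1.6.3, reverse-stranded and uniquely mapped, so reads shared by overlapping genes or near copies are not counted. Genes were named from GENCODE vM21. Counts were fitted with edgeR 4.0.16 (R 4.3.3), TMM normalisation, filterByExpr and the robust quasi-likelihood F test, in 1 fit of the 6 groups, with p-values adjusted by Benjamini-Hochberg over 15663 genes. A gene was called at an adjusted p below 0.05 and a fold change above 2. SE is the log2 fold change divided by the square root of F. CPM use TMM library sizes, and FPKM use exon length. The 32 genes and all other lists were chosen with earlier results of these data known. The rule for values in every library was the called genes, at most 5 per role with the smallest adjusted p, and Hsd17b7 and Abca1 were added after their values were seen. Promoters came from the RefSeq table of GRCm38.p6. Alternatives were DESeq2 1.42.0, limma-voom (limma 3.58.1), other normalisations, filters and fits, a replicate block, leaving out each library and, added after the data were seen, IRF5 KO LPS DMSO replicate 3 alone. The libraries of a group are labelled biological replicates, and p-values measure the spread between them, part of which may be technical. Some genes of the other pathway lists are counted but not reported by name here.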

Additional observations from a re-analysis of the deposited data

Results flagged for a closer look

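The difference between the genotypes in a response was called for 11 combinations of gene and treatment, by the interaction in edgeR with Benjamini-Hochberg adjustment. The values are log2 fold changes in WT minus those in IRF5 KO cells. They are given first with all libraries and then without IRF5 KO LPS DMSO replicate 3. By mean correlation that library was closest to IRF5 KO unstimulated, and replicates 1 and 2 of its group to IRF5 KO LPS defactinib. For LPS, Scd2 gave -1.24 and then -1.01. For defactinib, Hmgcs1 gave -3.23 and -3.90, Mylip -2.47 and -2.29, Fdft1 -2.17 and -2.33, Stard4 -1.71 and -2.08, and Insig1 -1.71 and -1.87. Sqle gave -1.42 and -1.59, and Idi1 -1.23 and -1.53. Acat2 gave 1.68 and 1.28. Mvd gave 1.04 and 0.95, and Scd2 gave 1.03 and 0.80, so that these 2 fell below 2-fold without that library. With replicate 3 alone in that group, 10 of the 11 were called again, and Idi1 was at -0.74. Mylip moved in opposite directions in the genotypes, with all 3 defactinib libraries below all 3 DMSO libraries in WT and above them in IRF5 KO cells. Groups of 3 libraries were not tested for single outlying samples.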

How the results depend on the processing

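Of the 70 called combinations of gene and comparison, 46 were called under every alternative and 24 lost the call under at least 1. Of the 187 combinations that passed the test, 1 changed direction, Scap with LPS in IRF5 KO (0.41, and -0.0448 with IRF5 KO LPS DMSO replicate 3 alone). That alternative, added after the data were seen, gave 0 for LPS and 2 for defactinib in IRF5 KO, 4 between genotypes with LPS DMSO and 2 for the LPS interaction. Counts of called genes are given in this order: LPS in WT, LPS in IRF5 KO, defactinib in WT, defactinib in IRF5 KO, WT against IRF5 KO unstimulated, with LPS DMSO and with LPS defactinib, LPS defactinib against unstimulated in WT and in IRF5 KO, and the interactions with LPS and with defactinib. With all libraries they were 6, 2, 12, 1, 3, 9, 5, 15, 6, 1 and 10. With no fold threshold they were 20, 17, 23, 1, 17, 20, 20, 26, 19, 6 and 18. In the same order, 41.8, 37.5, 57, 3.36, 15.3, 52.2, 36.3, 53.2, 53.4, 17.1 and 37% of all genes passed the test. With library size alone in place of TMM the count went to 13 for LPS in WT, 7 for LPS in IRF5 KO, 0 for defactinib in IRF5 KO, 13 for LPS defactinib against unstimulated in IRF5 KO and 2 for the LPS interaction. This scaling moved the median of all genes by -0.38 for LPS in WT, 0.20 for defactinib in WT and 0.33 for the defactinib interaction. The median moved by -0.24 for LPS, -0.13 for defactinib and -0.36 for LPS defactinib against unstimulated in IRF5 KO, and by -0.14 for the LPS interaction. This scaling also split the calls between genotypes with LPS DMSO as 5 higher and 2 lower (8 and 1 with TMM). For the defactinib interaction the split was 5 and 6 (3 and 7 with TMM). The share of all genes called with library size alone is not given here. These counts therefore cannot be read as a result about the listed genes apart from the shift of all genes. With only the groups compared in the fit, LPS in IRF5 KO gave 1 and defactinib in IRF5 KO gave 0. Leaving out each library gave 6 to 7, 2 to 9, 10 to 13, 0 to 1, 2 to 3, 7 to 11, 5 to 8, 13 to 16, 5 to 6, 1 to 5 and 8 to 11. The replicate block gave 6, 2, 12, 1, 3, 9, 5, 15, 6, 1 and 11. Same-numbered libraries had a median correlation of 0.00455 over 45 pairs, with 4 above 0.1, but 12 of the 18 libraries correlated best with their own number. Whether the numbers pair the samples in part is thus not settled by these values. Calls lost included Acat2 with defactinib in WT (0.997 with DESeq2 size factors), Fdps there (-0.89 with library size alone), Abcg1 with LPS in IRF5 KO (adjusted p = 0.0915 with only the groups compared) and Mylip with defactinib in IRF5 KO (adjusted p = 0.113 in the same fit of edgeR). The causes were not tested. Depth limits the genes of low level most, such as Fdps at 1.59 to 6.48 CPM.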
